A study of Mus musculus with 12 samples.

Results

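The genes described here are the cyclins, the cyclin-dependent kinases (CDKs), the CDK inhibitors, the E2F transcription factors, the pocket proteins and the CDC25 phosphatases, which together drive and restrain the cell division cycle. They were picked by gene symbol, with earlier results of these data known. The array annotation names 18194 genes by 1 symbol, and 53 of them were taken. These are 15 cyclins, 18 CDKs, 6 inhibitors of the Cdkn1 and Cdkn2 families (without Cdkn1c), 8 E2F genes, the 3 pocket protein genes Rb1, Rbl1 and Rbl2, and 3 Cdc25 genes. RNA of mouse embryonic stem cells of the D3 line had been hybridised to 12 Affymetrix arrays in 4 groups of 3. NP day8 and BPA day8 were D3 cells differentiated for 8 days with the agent labelled NP or BPA, control day8 was differentiated for 8 days with no agent, and control day0 was taken at day 0 with no agent. In every group the stem cells had been kept on mouse embryonic fibroblasts treated with MMC. Differentiation went through embryoid bodies. The labels give the agents by these letters only, with no dose, and do not say whether the 3 arrays of a group came from separate cultures. A p-value below therefore reflects only how far these arrays differ, which may be technical. All cells are of 1 line, and no genotype other than the line is given.

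The cycle is driven by kinases that are active only when bound to a cyclin. D-type cyclins with Cdk4 or Cdk6 and E-type cyclins with Cdk2 phosphorylate the pocket proteins in G1, which frees E2F factors to switch on genes for DNA replication. A-type and B-type cyclins with Cdk1 and Cdk2 carry cells through S phase and into mitosis. Inhibitors of the Cip/Kip type (Cdkn1a, Cdkn1b) and of the INK4 type (Cdkn2a to Cdkn2d) hold these kinases back, and CDC25 phosphatases remove the phosphates that block them. Embryonic stem cells are known for a short G1, high cyclin E and low inhibitor levels, and G1 lengthens as they differentiate. Other members, such as Cdk7, Cdk8, Cdk9, Cdk12, Cdk13, Cdk19 and the cyclins L and T, act mainly in transcription and RNA processing.

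Values are log2 signals made by MAS5, and the highest value of 3 bacterial TrpnX control probe sets, 3.41, is taken as the background level. Each gene is read from its probe set with the highest mean over the 12 arrays. A limma model that gives each of the 4 groups its own mean was run on 13066 genes, those with a probe set among the 60% with the highest mean. A gene is said to have risen or fallen where its p-value, adjusted over all these genes, was under 0.05. Of the 53 members 51 were tested. Cyclin B3 (Ccnb3, mean -0.06) and Cdk20 (mean 2.28) lay under the filter at 2.79. Ccnb1 was not analysed here. Changes are given on the log2 scale with the standard error of the model (n = 3 arrays per group), and group levels with the SD of 3 arrays. The arrays of a group correlated at 0.938 to 0.951 over the probe sets used for the 13066 genes tested. The stem cell label was borne out at day 0, where Pou5f1 lay at 11.45 ± 0.11 (SD, n = 3) and Afp and Tnnt2, markers of endoderm and heart muscle, lay under the background level on every array.

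The cell make-up of the groups differed at day 8, and these values stand beside every comparison below. The mean of 10 pluripotency genes lay at 9.73 to 10.20 on NP day8 arrays, 10.12 to 10.18 on BPA day8 arrays, 7.31 to 8.35 on control day8 arrays and 10.73 to 10.82 on control day0 arrays. All 10 genes were higher with each agent than in control day8. The mean of 10 fibroblast and connective tissue genes lay at 5.12 to 5.51 with NP, 4.95 to 5.49 with BPA, 7.53 to 8.07 in control day8 and 7.75 to 8.18 in control day0. Here 8 of the 10 were lower with each agent than in control day8. The similar means of control day8 and control day0 hide opposite moves of single genes. From control day0 to control day8, 5 of the 10 rose and 4 fell, with changes from -7.12 to 3.52. Heart muscle genes, read by 9 tested genes, averaged 4.92 to 6.81 with NP, with replicate 1 at 6.81, 4.72 to 5.80 with BPA, 7.62 to 8.55 in control day8 and 2.80 to 3.48 in control day0. Endoderm genes averaged 9.20 to 9.35, 8.69 to 8.89, 9.01 to 9.61 and 3.41 to 3.68 with NP, with BPA, in control day8 and in control day0. In the same order, vascular endothelium genes averaged 4.78 to 5.20, 4.60 to 4.93, 6.14 to 6.37 and 3.66 to 4.11. Trophoblast genes averaged 7.22 to 7.60, 7.45 to 7.62, 6.88 to 7.51 and 3.94 to 4.82. Neural genes, of which 6 were tested, averaged 5.86 to 6.12, 5.19 to 5.90, 4.91 to 5.92 and 6.03 to 6.39. The part of these differences in the cell cycle results was not tested. In RNA of whole cultures, fewer cells of a type and less RNA per cell cannot be told apart.

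Between day 0 and day 8 of control culture, Ccng2, Cdk14 and Cdkn1b rose most, and Ccne1, Ccnd1, E2f8, Cdkn2b and Ccnl1 fell most. Of the 51 members 13 rose and 10 fell, which is 45.1% of them, against 48.7% of all genes tested (28.3% higher, 20.5% lower). The arrays of both groups did not overlap for 29 members, against 56.8% of all genes. The median change of the members was 0.08, against 0.12 over all genes. With BPA 3 members were higher and 7 lower than in control day8, 19.6% of the 51, against 22.2% of all genes (12% higher, 10.2% lower), with medians of -0.07 and 0.04. The arrays did not overlap for 24 members, against 41.6% of all genes. With NP 1 member was higher and 4 lower, 9.8%, against 14.2% of all genes (7.90% higher, 6.28% lower), with medians of -0.11 and 0.01. Here 18 members did not overlap, against 34.8% of all genes. As a group the members thus changed about as often as genes at large, and what follows concerns which of them did. The split by direction depends on the scaling. Centring each array on its median gave 9 higher and 11 lower in control culture. It gave 4 higher and 2 lower with BPA and 1 higher and 1 lower with NP. That centring ended the rises of Cdk13, E2f5, E2f6 and Rbl1 in control culture (adjusted p 0.0527 to 0.133). With BPA it ended the calls of Ccnl1, Cdk4, Cdk8, Cdk19 and Cdkn2d as lower (adjusted p 0.07 to 0.11). With NP it ended those of Ccnd2, Ccnd3 and Cdkn1a (adjusted p 0.0561 to 0.127).

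**Figure D1:**
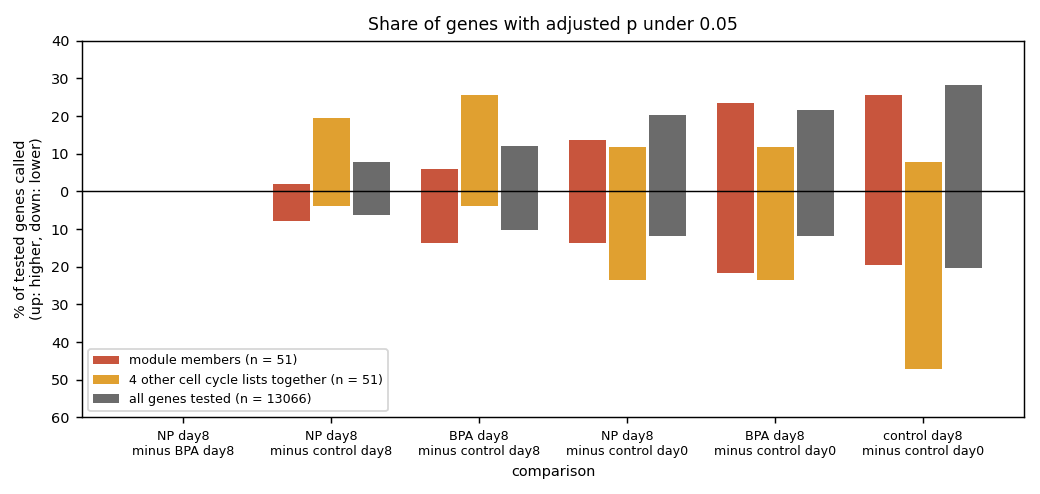
Share of tested genes with an adjusted p under 0.05 in each comparison (bars up: higher in the first-named group, bars down: lower, in %), for the 51 tested members, 51 genes of 4 other cell cycle lists and all 13066 genes tested. The members' bars lie near those of all genes in control day8 minus control day0 (45.1% against 48.7%), and the other lists lean to the lower side there (4 higher, 24 lower).

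Against day 0, the cultures with BPA and NP were also compared. Of the members, 12 were higher and 11 lower in BPA day8 than in control day0 (45.1%, against 33.6% of all genes, 21.7% higher and 11.9% lower), and 31 did not overlap (49.4% of all genes). In NP day8 7 were higher and 7 lower (27.5%, against 32.1% of all genes, 20.2% higher and 11.9% lower), or 4 and 7 after quantile normalization, and 27 did not overlap (47.6% of all genes). In all 3 groups at day 8, 11 members differed from day 0: Ccng2, Cdc25c, Cdkn2c, Cdkn2d and Rbl1 were higher, and Ccnd1, Ccne1, Ccnl1, Cdk17, Cdkn2b and E2f8 were lower. Of all genes 23.3% passed in all 3. The 3 comparisons share the control day0 arrays, so they are not independent of each other. Over the 6 comparisons made, 31 members passed in at least 1, against 58.3% of all genes, and 20 in none. The 20 include Cdk1, Ccna2, Ccnb2, Ccne2, Cdc25a and E2f1 to E2f4.

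**Figure D2:**
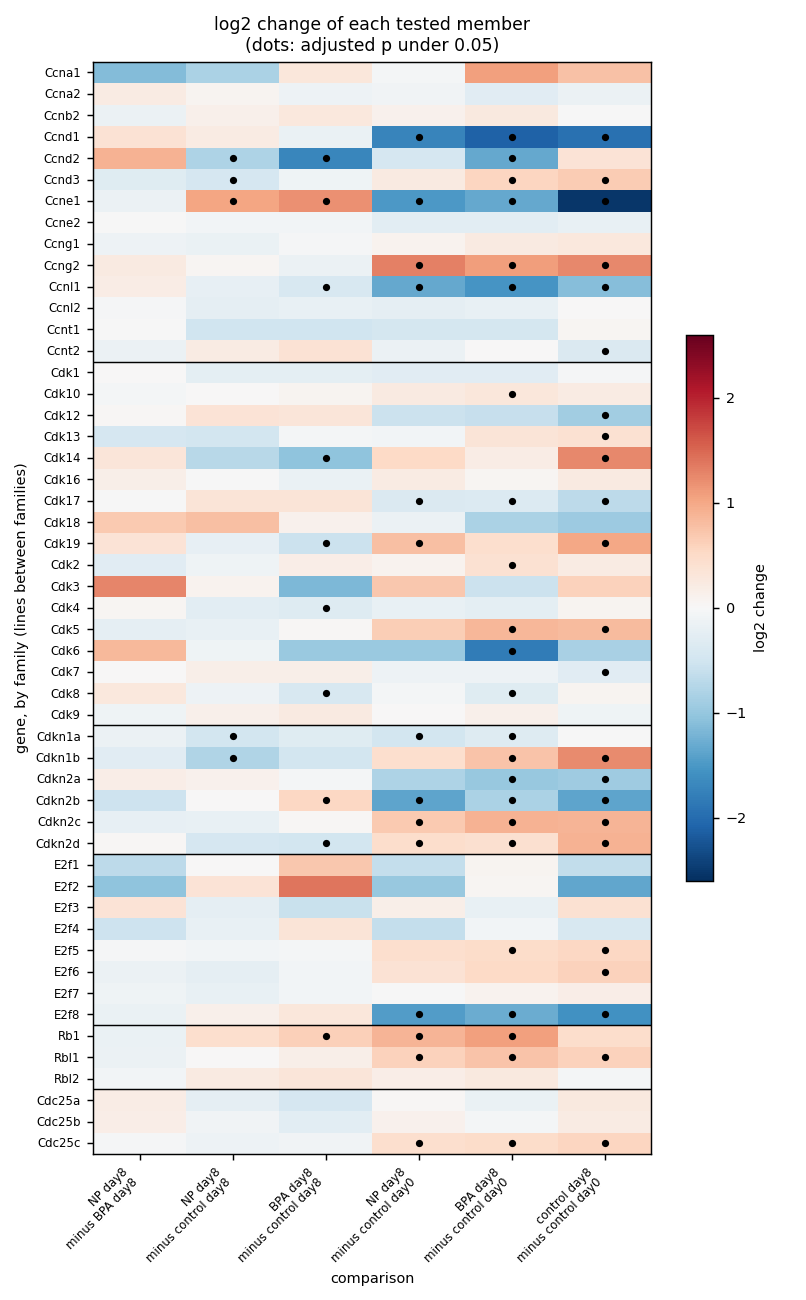
Heat map of the log2 change of the 51 tested members (rows, by family) in 6 comparisons (columns), on a colour scale from blue (lower in the first-named group) to red (higher), with a dot where the adjusted p was under 0.05. Ccne1 is the darkest blue cell at -2.52 in control day8 minus control day0 and turns red against control day8, at 1.03 with NP and 1.19 with BPA, and the NP minus BPA column holds no dot.

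The start regions of 8 of the members that passed with a change of at least 1 give the sequence context of these changes, and Cdk1, which passed in no comparison, is shown beside them. Ccnd1, Ccnd2, Cdk19 and Rb1 changed by as much and are not shown. The 250 bases before the start of transcription were read from RefSeq (build GRCm38.p6) and are written 5′ to 3′ on the strand of the gene. Capitals mark 4 motifs on either strand: the E2F letters TTTCGCGC, TTTGGCGC, TTTCCCGC or TTTGCCGC, the CHR element TTTGAA bound by the MuvB complex, the CCAAT box CCAAT bound by NF-Y and the GC box GGGCGG bound by Sp factors. E2F letters and GC boxes can share bases.
Ccne1, chr7:38107491-38107740, minus strand: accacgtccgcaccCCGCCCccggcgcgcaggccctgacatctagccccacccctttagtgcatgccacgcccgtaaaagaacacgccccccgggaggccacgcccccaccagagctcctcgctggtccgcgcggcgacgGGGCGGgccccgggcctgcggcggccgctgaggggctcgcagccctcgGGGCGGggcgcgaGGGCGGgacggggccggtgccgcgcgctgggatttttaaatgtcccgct
Ccnl1, chr3:65958250-65958499, minus strand: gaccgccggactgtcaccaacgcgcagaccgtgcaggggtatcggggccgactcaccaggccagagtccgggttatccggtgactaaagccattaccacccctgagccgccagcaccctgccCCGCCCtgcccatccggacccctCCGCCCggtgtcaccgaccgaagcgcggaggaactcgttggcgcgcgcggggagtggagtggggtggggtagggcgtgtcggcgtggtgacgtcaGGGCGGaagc
E2f8, chr7:48881597-48881846, minus strand: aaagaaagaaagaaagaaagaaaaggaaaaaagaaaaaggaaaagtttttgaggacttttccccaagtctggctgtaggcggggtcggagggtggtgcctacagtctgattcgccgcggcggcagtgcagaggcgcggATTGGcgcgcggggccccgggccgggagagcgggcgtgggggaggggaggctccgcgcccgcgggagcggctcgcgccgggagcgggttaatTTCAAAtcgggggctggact
Cdkn2b, chr4:89311033-89311282, minus strand: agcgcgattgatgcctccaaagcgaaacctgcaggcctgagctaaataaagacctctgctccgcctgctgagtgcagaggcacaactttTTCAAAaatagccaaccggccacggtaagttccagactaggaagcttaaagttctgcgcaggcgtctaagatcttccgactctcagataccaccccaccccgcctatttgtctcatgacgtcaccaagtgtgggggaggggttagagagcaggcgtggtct
Ccng2, chr5:93267323-93267572, plus strand: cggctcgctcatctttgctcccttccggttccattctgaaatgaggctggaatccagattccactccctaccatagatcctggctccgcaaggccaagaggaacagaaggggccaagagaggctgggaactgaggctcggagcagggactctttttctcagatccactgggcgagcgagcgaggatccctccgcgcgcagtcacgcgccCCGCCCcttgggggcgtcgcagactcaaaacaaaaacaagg
Cdkn1b, chr6:134920151-134920400, plus strand: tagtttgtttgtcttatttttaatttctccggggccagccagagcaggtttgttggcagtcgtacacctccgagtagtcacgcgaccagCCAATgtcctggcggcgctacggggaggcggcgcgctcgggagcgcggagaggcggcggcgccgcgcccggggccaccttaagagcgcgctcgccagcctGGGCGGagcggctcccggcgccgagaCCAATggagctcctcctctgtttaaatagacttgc
Cdk6, chr5:3343643-3343892, plus strand: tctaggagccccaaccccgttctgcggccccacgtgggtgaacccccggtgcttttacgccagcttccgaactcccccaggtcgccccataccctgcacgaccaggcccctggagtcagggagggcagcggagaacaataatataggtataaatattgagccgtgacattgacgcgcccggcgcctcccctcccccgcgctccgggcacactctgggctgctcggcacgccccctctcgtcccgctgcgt
Cdk14, chr5:5380252-5380501, minus strand: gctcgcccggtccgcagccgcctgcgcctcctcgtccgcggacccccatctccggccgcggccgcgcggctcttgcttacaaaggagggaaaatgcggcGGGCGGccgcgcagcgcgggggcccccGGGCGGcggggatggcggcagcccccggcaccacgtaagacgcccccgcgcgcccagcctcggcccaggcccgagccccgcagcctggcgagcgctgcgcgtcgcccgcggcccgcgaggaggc
Cdk1, chr10:69352913-69353162, minus strand: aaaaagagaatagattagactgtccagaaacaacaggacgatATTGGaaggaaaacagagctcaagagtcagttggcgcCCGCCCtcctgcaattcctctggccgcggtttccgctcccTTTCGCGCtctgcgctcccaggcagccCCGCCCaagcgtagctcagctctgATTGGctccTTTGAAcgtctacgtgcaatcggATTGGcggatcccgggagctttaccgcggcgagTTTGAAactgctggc
RefSeq entries were matched for 41 of the 53 genes, with 48 start regions. The E2F letters stood in 7 of the 48 (14.6%, against 1.86% of all 32851 start regions): those of Cdc25a, Cdk1, Cdk2, Cdkn2a, E2f3, E2f7 and Rbl1. The GC box stood in 31 (64.6%, against 32.7%), the CCAAT box in 21 (43.8%, against 33.8%) and the CHR letters in 8 (16.7%, against 16%). Of the 7 genes with the E2F letters, Cdk2, Cdkn2a and Rbl1 passed in at least 1 comparison, against 31 of the 51 tested members and 58.3% of all genes. Above, the Cdk1 region holds all 4 motifs, the Ccne1 region 4 GC boxes, the Cdk6 region none of the motifs and the Cdkn1b region 2 CCAAT boxes. A match is a run of letters and not a measured binding site. The starts are those of the RefSeq entries, and their use in these cells was not tested. A region without a motif may thus not be the promoter in use.

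Among the D-type cyclins, Ccnd1 fell by day 8 in all 3 cultures on every probe set, Ccnd2 was lower with each agent than in control day8, and Ccnd3 was higher in control and BPA cultures than at day 0. Ccnd1 lay at 8.88, 8.77 and 8.99 on NP day8 arrays, 8.39, 8.59 and 8.54 on BPA day8 arrays, 9.06, 8.63 and 8.33 on control day8 arrays and 10.55, 10.69 and 10.57 on control day0 arrays. All 9 arrays of day 8 were below the 3 of day 0. Both agents overlapped control day8, and the NP arrays lay above the BPA arrays. The change was -1.93 ± 0.17 in control culture, 3.82-fold lower (adjusted p = 2.2e-05), -2.10 ± 0.17 with BPA and -1.72 ± 0.17 with NP against day 0. On this probe set neither agent differed from control day8 past the threshold (NP 0.21 ± 0.17, adjusted p = 0.45; BPA -0.17 ± 0.17, adjusted p = 0.522). The other 2 probe sets of Ccnd1, at means of 8.26 and 8.11, also fell by day 8, and both were lower with each agent than in control day8 with no overlap, by -0.53 and -0.52 with NP and -0.62 and -0.49 with BPA. The mean of the 3 probe sets passed with BPA (-0.42, adjusted p = 0.0392) and missed with NP (-0.28, adjusted p = 0.186), so the comparison with control day8 depends on the probe set.

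Ccnd2 had levels of 10.24, 9.84 and 9.76 with NP, 9.17, 9.21 and 8.75 with BPA, 10.84, 11.09 and 10.30 in control day8 and 10.35, 10.54 and 10.27 in control day0. On the probe set used, the BPA arrays were the lowest 3 of the 12, and every NP array lay below every control array. Ccnd2 was 3.26-fold lower with BPA than in control day8 (-1.70 ± 0.22, adjusted p = 0.000997) and 1.74-fold lower with NP (-0.80 ± 0.22, adjusted p = 0.0405). The BPA call held whichever array was left out. The NP call ended without any of 9 arrays: the 3 of control day0 (adjusted p 0.0509 to 0.0572), control day8 replicates 1 and 2 (0.122 and 0.125), BPA replicates 1 and 2 (0.0569 and 0.0547) and NP replicates 2 and 3 (0.123 and 0.13). The 7 probe sets of Ccnd2, all past the filter, changed by -1.59 to -1.83 with BPA and by -0.60 to -0.80 with NP. The arrays did not overlap those of control day8 on all 7 with BPA and on 2 with NP. The mean of the probe sets passed with BPA (-1.70, adjusted p = 0.0024) and missed with NP (-0.73, adjusted p = 0.106). Against day 0 Ccnd2 was lower in BPA day8 (-1.34 ± 0.22, adjusted p = 0.00164). In NP day8 the change was -0.44 ± 0.22 (adjusted p = 0.159), against 0.04 with the mean of the probe sets (adjusted p = 0.928). In control day8 it was 0.36 ± 0.22 (adjusted p = 0.21), against 0.77 with that mean (adjusted p = 0.0333).

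Ccnd3 lay at 8.42, 8.40 and 8.02 with NP, 8.64, 8.68 and 8.47 with BPA, 8.71, 8.73 and 8.72 in control day8 and 8.14, 8.02 and 8.0 in control day0. It rose by day 8 in control culture (0.67 ± 0.12, adjusted p = 0.00137) and was higher in BPA day8 than at day 0 (0.55 ± 0.12, adjusted p = 0.00714). With NP it was lower than in control day8 (-0.44 ± 0.12, adjusted p = 0.0388), a call that ended without any of control day0 replicates 1 and 2, the 3 control day8 replicates, BPA replicates 1 and 2 or NP replicates 2 and 3 (adjusted p 0.0513 to 0.102). A dim second probe set of Ccnd3, at a mean of 2.87, changed by -0.56 in control day8 and -0.86 in BPA day8 against control day0, and by 0.94 with NP against control day8. Averaging it with the probe set used ended all 3 calls (adjusted p 0.945, 0.851 and 0.811).

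Of the partners of the D-type cyclins, Cdk6 was lower in BPA day8 than at day 0 and Cdk4 slightly lower with BPA than in control day8. Cdk6 had 7.03, 7.10 and 7.03 with NP, 6.48, 6.86 and 5.26 with BPA, 7.15, 7.41 and 6.95 in control day8 and 8.15, 8.14 and 7.76 in control day0. All day 8 arrays were under the day 0 arrays, and BPA replicate 3 was the lowest of the 12. The change against day 0 passed with BPA (-1.82 ± 0.34, 3.52-fold lower, adjusted p = 0.00327) and missed the threshold with NP (-0.96 ± 0.34, adjusted p = 0.0568) and in control culture (-0.84 ± 0.34, adjusted p = 0.0672), as did BPA against control day8 (-0.97 ± 0.34, adjusted p = 0.0706). The mean of its probe sets passed with NP against day 0 (-0.95, adjusted p = 0.0433) and with BPA against control day8 (-1.01, adjusted p = 0.0475). Cdk4 lay at 10.03, 9.89 and 10.03 with NP, 10.01, 9.93 and 9.83 with BPA, 10.29, 10.19 and 10.28 in control day8 and 10.17, 10.22 and 10.13 in control day0. Its change with BPA was -0.33 ± 0.09 (adjusted p = 0.0243), lost without control day8 replicate 1, BPA replicate 2 or BPA replicate 3 (adjusted p 0.0624 to 0.0804). With NP it was -0.27 ± 0.09 (adjusted p = 0.0698).

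**Figure D3:**
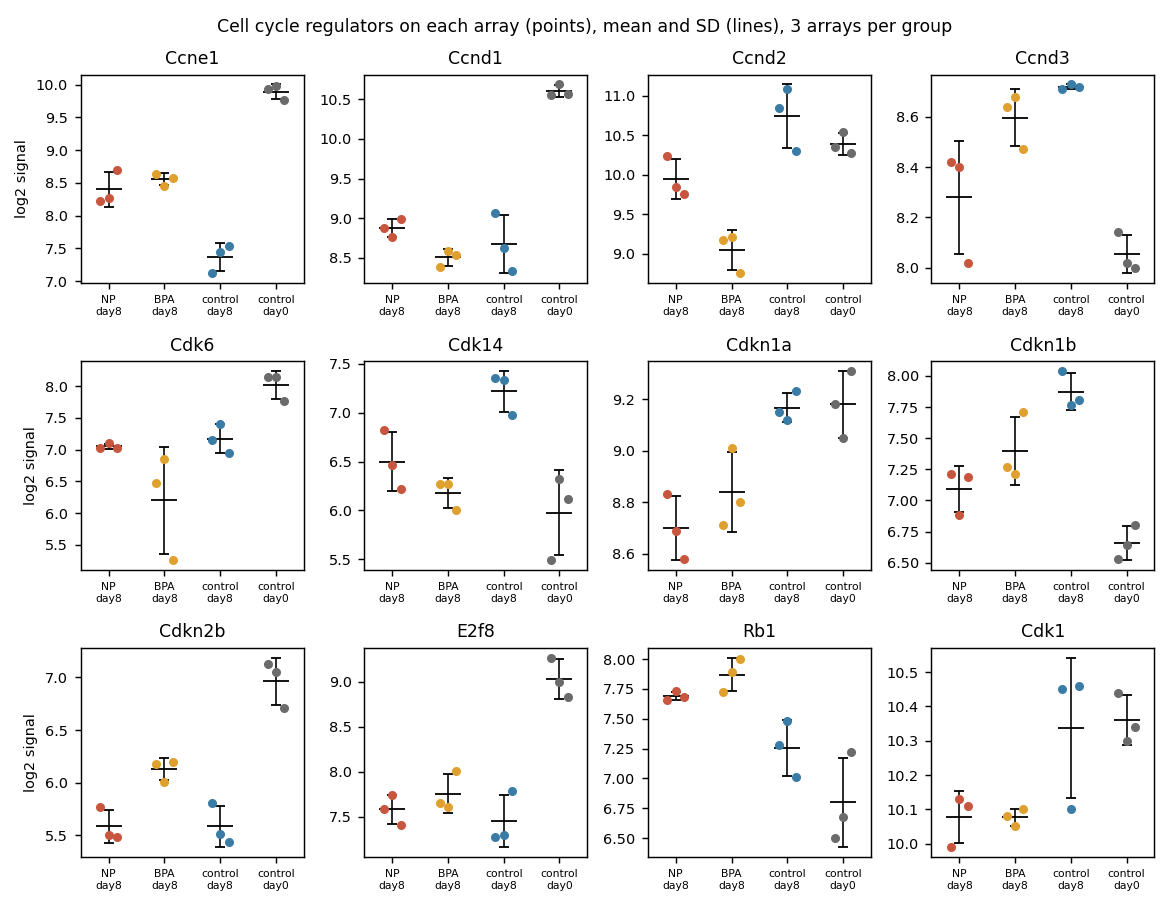
log2 signals of 12 members (points: the 3 arrays of each group; lines: group mean and SD), in the groups NP day8, BPA day8, control day8 and control day0 from left to right, each panel with its own vertical axis. Ccne1 lies highest at day 0 (9.76 to 9.98), lowest in control day8 (7.12 to 7.53) and between them with NP and BPA, and Ccnd2 lies lowest with BPA (8.75 to 9.21).

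Ccne1, which encodes cyclin E1, the Cdk2 partner of the G1 to S step, showed the greatest change of any member over the 6 comparisons. Its levels were 8.23, 8.27 and 8.70 with NP, 8.64, 8.46 and 8.57 with BPA, 7.12, 7.45 and 7.53 in control day8 and 9.94, 9.98 and 9.76 in control day0. The arrays of both agents lay between those of the 2 control groups with no overlap, and the agents overlapped each other. Against control day8 Ccne1 was 2.28-fold higher with BPA (1.19 ± 0.16, adjusted p = 0.00105) and 2.04-fold higher with NP (1.03 ± 0.16, adjusted p = 0.00345). Against day 0 it was lower with BPA (-1.34 ± 0.16, adjusted p = 0.000269) and with NP (-1.49 ± 0.16, adjusted p = 0.000161). These calls held with each of the 12 arrays left out. The other probe set changed by 0.73 with BPA and 0.81 with NP against control day8, and the mean of the 2 probe sets did not pass there (adjusted p 0.0525 and 0.0841).

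Of the other cyclins and kinases of S phase and mitosis, Ccna2 and Ccne2 passed in no comparison on the probe sets used. Cyclin A2 (Ccna2) ranged from 9.24 to 9.98 over the 12 arrays, with changes of 0.07 ± 0.18 with NP and -0.14 ± 0.18 with BPA against control day8 and -0.16 ± 0.18 in control day8 against day 0 (adjusted p 0.844, 0.621 and 0.503). Its second probe set was almost as bright (mean 9.41, against 9.50) and lay below day 0 with no overlap in all 3 day 8 groups, by -0.74 with NP, -0.51 with BPA and -0.72 in control culture. The mean of both passed against day 0 with NP (-0.42, adjusted p = 0.0252), with BPA (-0.41, adjusted p = 0.0268) and in control culture (-0.44, adjusted p = 0.0125), so whether Ccna2 fell depends on the probe set. Cyclin E2 (Ccne2) changed by -0.08 ± 0.18, -0.07 ± 0.18 and -0.20 ± 0.18 in the same 3 comparisons (adjusted p 0.811, 0.815 and 0.373). Cdk1, the kinase of mitotic entry whose start region is printed above, had 9.99, 10.13 and 10.11 with NP, 10.08, 10.05 and 10.10 with BPA, 10.45, 10.10 and 10.46 in control day8 and 10.44, 10.30 and 10.34 in control day0. Its changes against control day8 were -0.26 ± 0.11 with each agent (adjusted p = 0.158 for NP and 0.125 for BPA). Control day8 replicate 2 lay among the NP arrays and only just above the BPA arrays. Cdk2 lay at 7.80, 7.77 and 7.94 with NP, 8.12, 8.20 and 8.08 with BPA, 7.96, 7.89 and 8.0 in control day8 and 7.77, 7.84 and 7.60 in control day0. It was higher in BPA day8 than at day 0 (0.39 ± 0.09, adjusted p = 0.0104). Cyclin A1 (Ccna1), a cyclin of germ cells, was near or under the background level on most arrays, from 0.76 to 4.60.

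Of the phosphatases that activate these kinases, Cdc25c, which acts on Cdk1, rose by day 8 in control culture (0.56 ± 0.10, adjusted p = 0.0014) and was also higher than at day 0 with BPA (0.47 ± 0.10, adjusted p = 0.00642) and NP (0.43 ± 0.10, adjusted p = 0.0103). Cdc25a, which acts on Cdk2 at the G1 to S step, lay at 8.88, 8.96 and 8.76 with NP, 8.96, 8.64 and 8.42 with BPA, 9.10, 9.13 and 9.06 in control day8 and 8.95, 8.89 and 8.69 in control day0. Every treated array was under the control day8 arrays, with changes of -0.23 ± 0.14 for NP (adjusted p = 0.321) and -0.43 ± 0.14 for BPA (adjusted p = 0.054). A second probe set of Cdc25a (mean 8.13) changed by -0.05 with NP and 0.19 with BPA against control day8, with overlap, and was lower in control day8 than at day 0 with no overlap (-0.49, against 0.26 on the probe set used). Cdc25b changed by -0.27 to 0.21 in the 3 comparisons with control day8 and passed in none.

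The CDK inhibitors split by gene: by day 8 of control culture 3 of the 6 rose and 2 fell, where 28.3% of all genes rose and 20.5% fell. Cdkn1b, which encodes p27, had 7.21, 6.88 and 7.19 with NP, 7.27, 7.21 and 7.71 with BPA, 8.04, 7.77 and 7.81 in control day8 and 6.53, 6.64 and 6.80 in control day0. Both treated groups lay between the control groups, with every treated array over day 0 and under control day8. Cdkn1b rose 2.33-fold in control culture (1.22 ± 0.16, adjusted p = 0.000222) and was 1.72-fold lower with NP than in control day8 (-0.78 ± 0.16, adjusted p = 0.0131). The BPA value was -0.48 ± 0.16 (adjusted p = 0.0579). The NP call ended without control day8 replicate 1 (adjusted p = 0.0556) or NP replicate 2 (adjusted p = 0.0537), and with the mean of the 2 probe sets (adjusted p = 0.244). Against day 0 the BPA arrays were higher (0.74 ± 0.16, adjusted p = 0.00662), a call also lost with that mean (0.00, adjusted p = 0.998). The second probe set, at a mean of 3.33, under the background level, changed by -0.74 there. The NP arrays had 0.44 ± 0.16 (adjusted p = 0.0636).

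Cdkn1a, which encodes p21, a target of p53, changed by -0.02 ± 0.11 in control culture (adjusted p = 0.92) on the probe set used. It was lower with NP. Its levels were 8.83, 8.69 and 8.58 with NP, 8.71, 9.01 and 8.80 with BPA, 9.15, 9.12 and 9.23 in control day8 and 9.18, 9.05 and 9.31 in control day0. Every treated array lay under every control array. NP against control day8 gave -0.47 ± 0.11 (adjusted p = 0.0273), which ended without any of the 3 control day8 arrays or NP replicates 2 and 3 (adjusted p 0.0605 to 0.094). BPA gave -0.32 ± 0.11 (adjusted p = 0.0752). Against day 0 the change was -0.48 ± 0.11 with NP (adjusted p = 0.0108) and -0.34 ± 0.11 with BPA (adjusted p = 0.0475). The BPA call ended without any of 10 arrays, all but control day0 replicate 2 and BPA replicate 2 (adjusted p 0.0503 to 0.147). The second probe set of Cdkn1a (mean 7.79) was also lower with NP (-0.52) and BPA (-0.73) than in control day8, but was higher in control day8 than at day 0 with no overlap (0.51) and changed by -0.01 with NP and -0.22 with BPA against day 0. With the mean of both, NP and BPA were lower than control day8 (-0.49, adjusted p = 0.0159, and -0.52, adjusted p = 0.00704), and both calls against day 0 were lost (adjusted p 0.0992 for NP and 0.0645 for BPA).

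Of the INK4 inhibitors, which bind Cdk4 and Cdk6, Cdkn2b fell by day 8 and Cdkn2c and Cdkn2d rose. Cdkn2b, which encodes p15, had 5.77, 5.50 and 5.49 with NP, 6.18, 6.01 and 6.2 with BPA, 5.81, 5.51 and 5.44 in control day8 and 7.13, 7.05 and 6.71 in control day0. It was 2.59-fold lower than at day 0 in control culture (-1.37 ± 0.15, adjusted p = 7.39e-05) and with NP (-1.37 ± 0.15, adjusted p = 0.00021). The BPA arrays lay above those of both other day 8 groups (0.54 ± 0.15 against control day8, adjusted p = 0.0296), a call lost when any of control day8 replicates 2 and 3 or BPA replicates 1 and 3 was left out (adjusted p 0.0777 to 0.0876). Cdkn2a, its neighbour on chromosome 4, encodes p16 and p19Arf from overlapping transcripts that its 1 probe set was not shown to separate. It had 6.47, 6.26 and 6.80 with NP, 6.09, 6.42 and 6.49 with BPA, 6.24, 5.83 and 7.09 in control day8 and 7.49, 7.61 and 6.85 in control day0. The control groups overlapped at control day8 replicate 3, and the fall (-0.93 ± 0.32, adjusted p = 0.0352) ended without control day0 replicate 1 or 2 or control day8 replicate 1 or 2 (adjusted p 0.0962 to 0.125). In BPA day8 it was also lower than at day 0 (-0.98 ± 0.32, adjusted p = 0.0389), which ended without any of 7 arrays (adjusted p 0.052 to 0.119): control day0 replicates 1 and 2, control day8 replicate 1, all 3 of BPA and NP replicate 1. Cdkn2c (p18) rose by 0.88 ± 0.16 (adjusted p = 0.00166) and Cdkn2d (p19Ink4d) by 0.90 ± 0.14 (adjusted p = 0.000692) in control culture. Cdkn2d was lower with BPA than in control day8 (-0.48 ± 0.14, adjusted p = 0.0404), which ended without any of 10 arrays, all but control day0 replicate 3 and control day8 replicate 2 (adjusted p 0.0506 to 0.139).

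Of the pocket proteins, which hold E2F factors inactive, Rb1 was higher in both treated groups than at day 0, and Rbl1 was higher in all 3 day 8 groups on 1 of its 2 probe sets past the filter. Rb1 had 7.66, 7.73 and 7.68 with NP, 7.72, 7.89 and 8.0 with BPA, 7.28, 7.48 and 7.01 in control day8 and 6.5, 6.68 and 7.22 in control day0. Every treated array lay above every control array, and the control groups overlapped. The change against day 0 was 1.07 ± 0.19 with BPA (2.10-fold, adjusted p = 0.00222) and 0.89 ± 0.19 with NP (1.86-fold, adjusted p = 0.00597). Against control day8 it was 0.61 ± 0.19 with BPA (adjusted p = 0.0422) and 0.44 ± 0.19 with NP (adjusted p = 0.16). The BPA call against control day8 ended without any of 9 arrays, all but control day0 replicates 1 and 3 and control day8 replicate 2 (adjusted p 0.0543 to 0.121).

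Rbl1, which encodes p107, had 7.37, 7.61 and 7.24 with NP, 7.51, 7.49 and 7.65 with BPA, 7.51, 7.60 and 7.11 in control day8 and 6.55, 6.83 and 7.02 in control day0. It was higher than at day 0 by 0.60 ± 0.17 in control culture (adjusted p = 0.014), 0.75 ± 0.17 with BPA (adjusted p = 0.00763) and 0.60 ± 0.17 with NP (adjusted p = 0.0214). The control call ended without control day0 replicate 1 (adjusted p = 0.0537) or control day8 replicate 2 (adjusted p = 0.0526). The NP call ended without control day0 replicate 1 or 2 or NP replicate 1 or 2 (adjusted p 0.0511 to 0.0781). A dimmer probe set of Rbl1 past the filter went the other way against day 0 in all 3 day 8 groups, by -0.22 with NP, -0.40 with BPA and -0.29 in control culture. Averaged with the one used, none of the 3 changes passed (adjusted p 0.407, 0.439 and 0.459). Rbl2 (p130) ranged from 4.66 to 5.49 and passed in none.

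Among the E2F factors, E2f8 fell by day 8 in all 3 cultures, and the activators E2f1, E2f2 and E2f3 passed in no comparison on the probe sets used. E2f8, a repressor that acts without the pocket proteins, had 7.59, 7.74 and 7.41 with NP, 7.65, 7.61 and 8.01 with BPA, 7.27, 7.30 and 7.79 in control day8 and 9.27, 9.0 and 8.83 in control day0. All 9 arrays of day 8 were lower than those of day 0: -1.58 ± 0.18 in control culture (2.99-fold, adjusted p = 0.000111), -1.28 ± 0.18 with BPA (adjusted p = 0.000852) and -1.45 ± 0.18 with NP (adjusted p = 0.000473). E2f7, its closest relative, changed by -0.20 to 0.18 over all 6 comparisons. E2f5, a partner of the pocket proteins, rose by 0.53 ± 0.16 (adjusted p = 0.0215), and E2f6, a repressor of germ cell genes, by 0.60 ± 0.19 (adjusted p = 0.0224) in control culture. The E2f5 call ended without control day0 replicate 1 or control day8 replicates 1 or 2 (adjusted p 0.0676 to 0.0811). With the mean of the probe sets neither passed (adjusted p 0.768 and 0.234). The E2f6 call ended without control day0 replicate 2 or control day8 replicate 1 (adjusted p 0.0766 and 0.0721).

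The activators varied between arrays of a group. E2f1 had 5.34, 6.14 and 5.78 with NP, 6.51, 6.67 and 6.13 with BPA, 5.96, 5.51 and 5.73 in control day8 and 5.89, 6.40 and 6.80 in control day0. BPA lay above control day8 with no overlap (0.71 ± 0.27, adjusted p = 0.0934), while NP gave 0.02 ± 0.27 (adjusted p = 0.972). E2f2 had 4.89, 4.73 and 3.34 with NP, 5.32, 5.0 and 5.77 with BPA, 3.71, 3.02 and 5.16 in control day8 and 4.69, 5.62 and 5.62 in control day0. There was 1 array under the background level in each of NP day8 and control day8. Its change of 1.40 ± 0.58 with BPA did not pass (adjusted p = 0.113). With the mean of the probe sets of each gene, E2f1 (0.67, adjusted p = 0.0419) and E2f2 (1.07, adjusted p = 0.0371) were higher with BPA than in control day8, and E2f2 fell in control culture (-1.20, adjusted p = 0.00928). E2f3 had 7.96, 7.74 and 7.75 with NP, 7.65, 7.35 and 7.40 with BPA, 8.06, 8.48 and 7.60 in control day8 and 7.98, 7.44 and 7.55 in control day0. E2f4, a pocket protein partner, ranged from 3.47 to 4.83.

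Outside the G1 to S circuit, Ccnl1 and Ccng2 changed by over 1 log2 unit in all 3 day 8 groups against day 0 on the probe sets used. Ccnl1, a cyclin L that acts in RNA splicing, had 9.19, 9.08 and 9.19 with NP, 9.16, 8.89 and 8.82 with BPA, 9.42, 9.36 and 9.34 in control day8 and 10.51, 10.45 and 10.49 in control day0. It fell by 1.11 on the log2 scale in control culture (SE 0.10, 2.16-fold, adjusted p = 2.97e-05), and was lower than at day 0 with BPA (-1.53 ± 0.10) and NP (-1.33 ± 0.10). Every treated array lay under control day8, and the difference passed with BPA (-0.41 ± 0.10, adjusted p = 0.0178), though not without control day8 replicate 1 or BPA replicates 2 or 3 (adjusted p 0.0622 to 0.0628), and missed with NP (-0.22 ± 0.10, adjusted p = 0.193). Ccng2, an atypical cyclin linked to cell cycle arrest, had 7.96, 7.92 and 8.64 with NP, 7.52, 7.86 and 8.45 with BPA, 8.05, 7.88 and 8.40 in control day8 and 6.74, 6.96 and 6.89 in control day0. It rose 2.37-fold in control culture (1.25 ± 0.26, adjusted p = 0.00347) and was also above day 0 with BPA (1.08 ± 0.26, adjusted p = 0.0115) and NP (1.31 ± 0.26, adjusted p = 0.00484). A dimmer probe set of Ccng2 (mean 5.1) changed by 0.60, 0.67 and 0.53 in these comparisons, with overlap in each. The mean of both still passed, with smaller changes of 0.92, 0.87 and 0.92 (adjusted p 0.0124, 0.0245 and 0.0207).

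Of the kinases with roles outside the core cycle, Cdk14 and Cdk19 rose by day 8 and were lower with BPA. Cdk14, a cyclin Y partner in Wnt signalling, had 6.82, 6.46 and 6.22 with NP, 6.27, 6.27 and 6.0 with BPA, 7.35, 7.33 and 6.98 in control day8 and 5.49, 6.32 and 6.12 in control day0. It rose by 1.24 ± 0.23 in control culture (2.37-fold, adjusted p = 0.00165) and was 2.06-fold lower with BPA than in control day8 (-1.04 ± 0.23, adjusted p = 0.0112), with -0.72 ± 0.23 for NP (adjusted p = 0.0687). Cdk19, a kinase of the Mediator complex, had 6.45, 6.92 and 6.35 with NP, 6.24, 6.25 and 6.17 with BPA, 6.92, 6.72 and 6.71 in control day8 and 5.96, 5.69 and 5.68 in control day0. It rose by 1.0 ± 0.15 in control culture (adjusted p = 0.000558) and was lower with BPA (-0.56 ± 0.15, adjusted p = 0.0282), a call lost without control day8 replicate 1, control day8 replicate 2 or any of the BPA arrays (adjusted p 0.0567 to 0.0991). Its second probe set changed by 0.09 with BPA, opposite in sign. Cdk8, the other Mediator kinase, was lower with BPA (-0.41 ± 0.11, adjusted p = 0.028), which ended without any control day8 array or BPA replicates 2 or 3 (adjusted p 0.0535 to 0.0956).

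The remaining members that passed changed by under 1 log2 unit. In control culture Cdk5, a kinase best known from neurons, rose by 0.83 ± 0.22, while Cdk12, which phosphorylates RNA polymerase II, fell (-0.91 ± 0.22; mean of its probe sets -0.52, adjusted p = 0.218), as did Cdk17 (-0.69 ± 0.11). Cdk13 (0.40 ± 0.14, adjusted p = 0.0422), Ccnt2 (-0.37 ± 0.13, adjusted p = 0.0363) and Cdk7 (-0.29 ± 0.10, adjusted p = 0.0345) passed narrowly. The Cdk13 call ended without control day0 replicate 1 or 3, control day8 replicate 1 or 2, BPA replicate 1 or NP replicate 2 (adjusted p 0.0553 to 0.14). The Ccnt2 call ended without control day0 replicate 1 or 2, any control day8 array or NP replicate 2 (adjusted p 0.0513 to 0.121). The Cdk7 call ended without control day0 replicate 1 or 2 or control day8 replicate 3 (adjusted p 0.0561 to 0.12). Of the 5 probe sets of Cdk7, the kinase that activates other CDKs, 3 changed by 0.92 to 1.60 in control culture, against -0.29 for the brightest, so its direction depends on the probe set. Against day 0, Cdk10 was higher (0.29 ± 0.10) and Cdk8 lower (-0.32 ± 0.11) with BPA, calls that each ended with 10 or more arrays left out in turn (highest adjusted p 0.136 and 0.153). Cdkn2c was higher than at day 0 with BPA (0.91 ± 0.16, adjusted p = 0.00258) and NP (0.69 ± 0.16, adjusted p = 0.0108), Cdk5 with BPA (0.87 ± 0.22, adjusted p = 0.0127) and Cdk19 with NP (0.79 ± 0.15, adjusted p = 0.00404). Cdk17 was lower than at day 0 with BPA (-0.35 ± 0.11) and NP (-0.37 ± 0.11). Cdkn2d was higher with both agents and E2f5 with BPA, and these calls ended without any of 5 to 10 arrays (highest adjusted p 0.087 to 0.15). Ccna1, Ccnb3, Cdk3, Cdk18 and Cdk20 had arrays under the background level in every group.

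**Figure D4:**
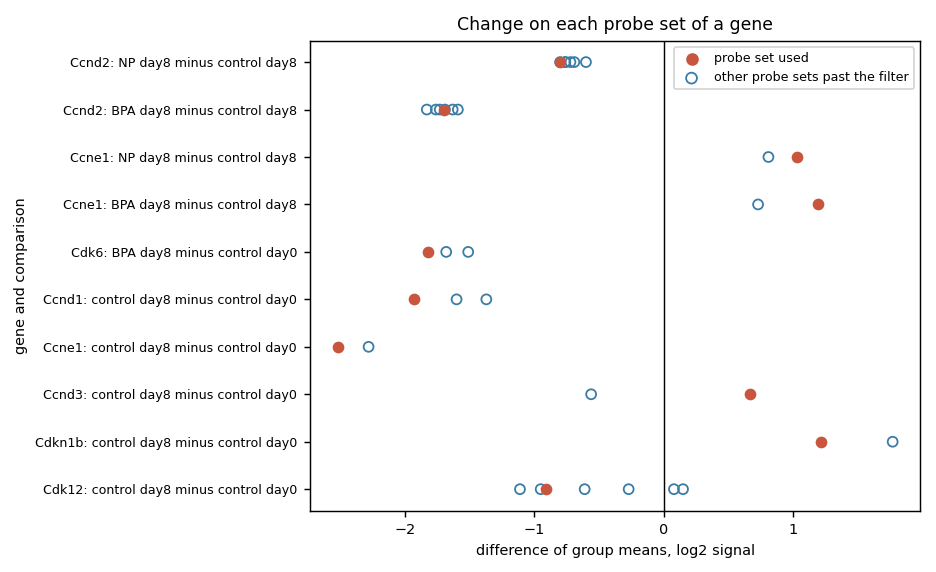
Difference of group means on each probe set past the filter (filled: the probe set used, open: the others), for 10 pairs of gene and comparison, in log2 signal. The 7 probe sets of Ccnd2 lie together at -1.59 to -1.83 with BPA, while those of Ccnd3 and Cdk12 in control culture fall on both sides of 0.

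Between the agents, none of the 51 members passed the test, with 10 at an unadjusted p under 0.05 and 10 whose arrays did not overlap (17.0% of all genes). Of all genes 1 passed in limma (0.00765%), the growth factor gene Tgfb3 near the background level, and 1095 had an unadjusted p under 0.05. The labels give no dose for either agent, so doses cannot be matched, and the agents' chemical difference is not stated. Ccnd2 differed by 0.90 ± 0.22 (NP minus BPA, 95% interval 0.41 to 1.40, adjusted p = 0.352) and its arrays did not overlap. Cdkn2b differed by -0.54 ± 0.15 (-0.87 to -0.20, adjusted p = 0.398), Cdk6 by 0.85 ± 0.34 (0.08 to 1.62, adjusted p = 0.545), E2f1 by -0.68 ± 0.27 (-1.29 to -0.07, adjusted p = 0.541) and Cdk2 by -0.30 ± 0.09 (-0.51 to -0.08, adjusted p = 0.462). For Ccne1 the difference was -0.16 ± 0.16 (-0.51 to 0.19, adjusted p = 0.841). These intervals are not adjusted for the number of genes, and a p that misses the threshold does not show that the agents act alike.

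The genes that work with these regulators were read from 4 lists of 51 genes, all tested. By day 8 of control culture 24 of them fell and 4 rose (54.9%, against 48.7% of all genes, 20.5% lower and 28.3% higher), with a median change of -0.32. Among 15 ubiquitin ligase, CDK-binding and replication licensing genes 9 fell and 0 rose, led by Fbxo5, an inhibitor of the anaphase-promoting complex (-1.15 ± 0.11), Cdc6 (-0.76 ± 0.14) and Cdt1 (-0.70 ± 0.08), which load the replicative helicase. Among 16 kinases and checkpoint genes of G2 and mitosis 8 fell and 2 rose, with the checkpoint kinases Chek2 (-1.87 ± 0.14) and Chek1 (-0.96 ± 0.11) and the spindle checkpoint gene Bub1b (-0.60 ± 0.19) the largest falls. Mki67, a marker of cycling cells (0.47 ± 0.13), and the mitotic kinase gene Aurkb (0.43 ± 0.11) rose, though neither after median centring. Of 10 E2F partners and genes of the DREAM and MYB-MuvB complexes 4 fell and 0 rose, led by Mybl2, which binds MuvB to switch on mitotic genes (-2.04 ± 0.17), and the E2F dimer partner Tfdp1 (-0.79 ± 0.10). Of 10 MYC family genes 3 fell, Mycn (-1.19 ± 0.15), Mga (-0.99 ± 0.22) and Mnt (-0.75 ± 0.25), and 2 rose, Mxd4 (1.34 ± 0.19) and Mxi1 (0.98 ± 0.13).

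With the agents 3 of these lists leaned the other way, also after quantile normalization or median centring, and the MYC family did not: its median was -0.20 in control culture, and -0.16 with NP and -0.22 with BPA against control day8. The control day8 arrays enter the control culture comparison and both agent comparisons with opposite sign. A deviation of these arrays would thus move them in opposite directions, and the comparisons are not independent. Of the 51 genes 10 were higher and 2 lower with NP than in control day8 (median 0.15), and 13 were higher and 2 lower with BPA (median 0.26), against 7.90% and 6.28% of all genes with NP and 12% and 10.2% with BPA. Without control day8 replicate 1, NP replicate 2 or NP replicate 3 the NP counts were 2 higher and 0 lower, and they were 4 and 0 without control day8 replicate 2 and 6 and 1 without NP replicate 1. The BPA counts were 7 higher and 0 lower without control day8 replicate 1, and 8 higher without control day8 replicate 2 or BPA replicates 1 or 2. Mybl2 was higher by 1.35 ± 0.17 with NP and 1.86 ± 0.17 with BPA, Chek2 by 0.94 ± 0.14 and 1.11 ± 0.14, and Fbxo5 by 0.43 ± 0.11 and 0.37 ± 0.11. Skp2, the ligase subunit that targets p27 for degradation, was lower, with changes of -0.31 ± 0.09 with NP and -0.35 ± 0.09 with BPA, as was Mxd4, with -0.79 ± 0.19 and -0.62 ± 0.19. The mean of the G2 and mitosis list lay at 9.07 to 9.16 with NP, 9.09 to 9.17 with BPA, 8.84 to 8.93 in control day8 and 9.22 to 9.30 in control day0, with no overlap of the treated arrays with either control group. The mean of the 51 cyclin, CDK, inhibitor, E2F, pocket protein and CDC25 genes lay at 7.54 to 7.57, 7.52 to 7.60, 7.60 to 7.66 and 7.55 to 7.73 in the groups NP day8, BPA day8, control day8 and control day0.

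**Figure D5:**
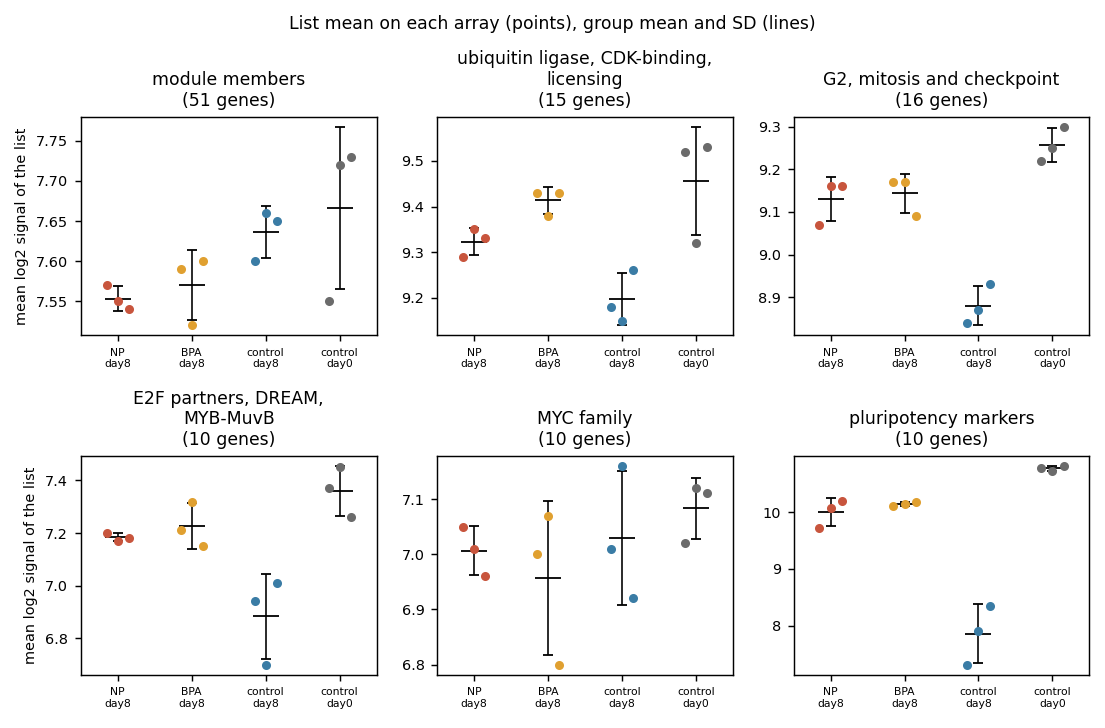
Mean log2 signal of 6 gene lists on each array (points), with the group mean and SD (lines), in the groups NP day8, BPA day8, control day8 and control day0 from left to right, each panel with its own axis. The G2 and mitosis list and the pluripotency list lie lowest in control day8 (8.84 to 8.93 and 7.31 to 8.35), while the cyclin, CDK, inhibitor and E2F genes lie within 7.52 to 7.73 on all arrays.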

How the data were processed

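RNA was measured on 12 arrays. Per the submitters' processing notes the authors ran MAS5, whose version is not given in the sources used here, and the deposited table holds its signals as log2 values, with 1 row a probe set. The table held 45101 probe sets. No detection calls were used, and the number of arrays limits the precision.

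Probe sets were named from the platform annotation, and all 53 member symbols were found in RefSeq. The values were used as deposited. Without controls, the brightest 60% of probe sets by mean were kept (27022), and each gene was read from the probe set with the highest mean. limma 3.58.1 (R 4.3.3) estimated a mean per group from all arrays and tested 2-sided, with Benjamini-Hochberg adjustment over the 13066 genes, and was tested on simulated data. Members and lists were chosen with earlier results of these data known. The genes given array by array were a set list of core regulators and members that passed, changed by at least 1 and did not overlap. Alternatives were 11 settings and each array left out. Figures were drawn with matplotlib 3.10.9.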

Additional observations from a re-analysis of the deposited data

How the results depend on the processing

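When any 1 of the 12 arrays was left out, 16 of the 23 members that passed in control day8 against control day0 kept their call, 3 of 10 with BPA against control day8 (Ccnd2, Ccne1 and Cdk14), 1 of 5 with NP against control day8 (Ccne1), 16 of 23 with BPA against control day0 and 11 of 14 with NP against control day0. Under those fits the members that passed numbered 18 to 25, 4 to 12, 1 to 6, 17 to 22 and 11 to 18 in these comparisons, and 0 for NP against BPA. The genes that passed numbered 5515 to 6285, 1822 to 2949, 802 to 1874, 3327 to 4477 and 3096 to 4351, and 0 to 3 for NP against BPA. The lowest gene counts with BPA and NP against control day8 came without control day8 replicate 1, where 4 and 1 members passed. With BPA, 4 members also passed without BPA replicate 3 and 5 without BPA replicate 2. With NP, 1 passed without NP replicate 2, 2 without NP replicate 3, and 3 without control day0 replicate 2 or BPA replicate 1.

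Of the other settings, the count of members that passed with BPA against control day8 (10) became 4 with no filter on low values or only the 2 groups in the fit, 6 with median centring, 16 with the stricter filter of 40%, 17 with array weights, 18 with a pseudocount of 32 and 19 with a mean-variance trend. With NP against control day8 (5) it became 1 with the mean of the probe sets, 2 with no filter, median centring or only the 2 groups, 8 with a pseudocount of 16 or 32, 9 with the stricter filter or the trend, and 11 with array weights. Of all genes, 1852 passed with NP, 1182 with no filter and 645 with only the 2 groups. NP against BPA gave 4 genes with no filter, 3 with the mean of the probe sets or array weights, and 0 with the stricter filter, either pseudocount, median centring, the trend, only the 2 groups or the replicate block. With NP against control day0, 22 members passed with the trend, against 14. The cause was not tested.

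Taking the mean of the probe sets of a gene left 5 changes that had passed at 0.00 or with the opposite sign. Of these only Cdk7 passed in the new direction (0.67, adjusted p = 0.00723, in control day8 against control day0). Ccnt2 went to 0.06 (adjusted p = 0.886) in the same comparison, and Ccnd3 to 0.25 (adjusted p = 0.811) with NP against control day8. With BPA against control day0, Ccnd3 went to -0.16 (adjusted p = 0.851) and Cdkn1b to 0.00 (adjusted p = 0.998). The median change of all genes in control day8 against control day0 was 0.12 as deposited and 0.01 after quantile normalization or median centring. Samples with the same replicate number did not deviate together (correlations of -0.009 to 0.081). With the replicate block, 22, 12, 5, 19 and 16 members passed in control day8 against control day0, BPA and NP against control day8, and BPA and NP against control day0. Over all results and alternatives, 5046 values kept their direction and side of the threshold or lay near the count reported. Another 285 were weaker, 178 were stronger and 5 turned direction or came to 0.00. With 3 arrays a group, changes may go undetected, large ones included. In the simulated data 100 of 13066 genes were shifted by 1 log2 unit and 100 by 2. Over the 6 comparisons 47% to 58% of the shifts of 1 were recovered, and 76% to 84% of those of 2. Most comparisons here held many more genes that passed, so these shares need not carry over. Signals near 3.41 cannot be told from background.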
